A study of Danio rerio with 4 samples.

Results

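Of the 13 proteins that zebrafish mitochondrial DNA encodes, 7 are subunits of respiratory complex I, and footprints on their coding sequences were followed here in disome and monosome libraries. The members were taken by position, from 37 consecutive rows of the deposited tables, the first of which is ENSDART00000116162.3. Of these, 13 rows had a coding length, and the 1st, 2nd, 8th, 9th, 10th, 11th and 12th of them are nd1 (ENSDART00000093596.3), nd2 (ENSDART00000093600.3), nd3 (ENSDART00000093615.3), nd4l (ENSDART00000093617.3), nd4 (ENSDART00000093618.3), nd5 (ENSDART00000093622.3) and nd6 (ENSDART00000093623.3). The tables hold no gene names, so the labels were checked against the mitochondrial genes that RefSeq lists for zebrafish. The alternation of coding and noncoding rows was the same as in RefSeq over all 37 genes, and all 13 coding lengths equalled the RefSeq gene length in codons, rounded down. The 7 members are thus 7 of 59876 transcripts listed and of 46061 with a coding length, and they hold 2130 of the 3802 codons of the 13 mitochondrial coding sequences, or 56.0%.

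Complex I (NADH:ubiquinone oxidoreductase) passes electrons from NADH to ubiquinone and pumps protons across the inner mitochondrial membrane. Its mitochondrially encoded subunits all lie in the membrane arm and are made inside the organelle by mitochondrial ribosomes, whereas its other subunits are encoded in the nucleus and imported. Nd2, Nd4 and Nd5 are the antiporter-like subunits of the proton-pumping arm. Nd1 sits where the membrane arm meets the peripheral arm and helps to form the ubiquinone-binding channel, and Nd3, Nd4l and Nd6 are smaller subunits next to it. In vertebrates nd6 is encoded on the strand opposite to the other members, and nd4l and nd4 share a transcript with overlapping reading frames.

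When ribosomes collide, the stacked pair shields a longer stretch of mRNA from nuclease, the disome footprint, whereas a lone ribosome leaves a monosome footprint. Both kinds came from whole wild-type embryos (AB strain) collected 4 hours postfertilization (hpf) that had received sfGFP reporter mRNAs at the 1-cell stage, with 2 disome and 2 monosome libraries. The genotype, the stage and the injection were shared by all 4 libraries, and the groups compared were the 2 kinds of footprint. The authors state that the disome libraries they added were prepared in parallel with libraries published earlier. Whether both kinds were sequenced together is not given in the sources used here. Any handling that differed between the kinds cannot be told apart from the kind of footprint. The embryos were lysed with cycloheximide present and digested with RNase I, and the labels do not say whether the replicates came from separate clutches or how many embryos went into each. Disome libraries held 473057 counts in replicate 1 and 364830 in replicate 2, against 2749837 and 3814224 in the monosome libraries, and intervals below are 95% intervals that cover counting error only. All 13 mitochondrial coding sequences took 0.0154% and 0.0332% of the disome libraries, against 0.538% and 0.441% of the monosome libraries. As a factor, though not in percentage points, the disome replicates were further apart in mitochondrial content than the monosome replicates.

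The 7 members had few disome footprints. Their summed count was 28 in disome replicate 1 and 37 in disome replicate 2, against 2038 and 2277 in the monosome libraries. In counts per 1000000 counts of the library (CPM), these were 59.2 and 101 in the disome libraries, against 741 and 597 in the monosome libraries. At the proportion they had in the monosome library of the same number, 351 disome footprints would have fallen on the members in replicate 1 and 218 in replicate 2. The summed level was therefore 12.5 times lower in the disome than in the monosome library of replicate 1, and 5.89 times lower in that of replicate 2. Within a library, footprint levels combine the amount of mRNA with the number of ribosomes on it. In whole embryos, fewer cells of a type and less RNA per cell cannot be told apart. Disome and monosome libraries were compared on embryos of the same genotype, stage and injection, but the labels do not say that these were the same embryos.

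**Figure D1:**
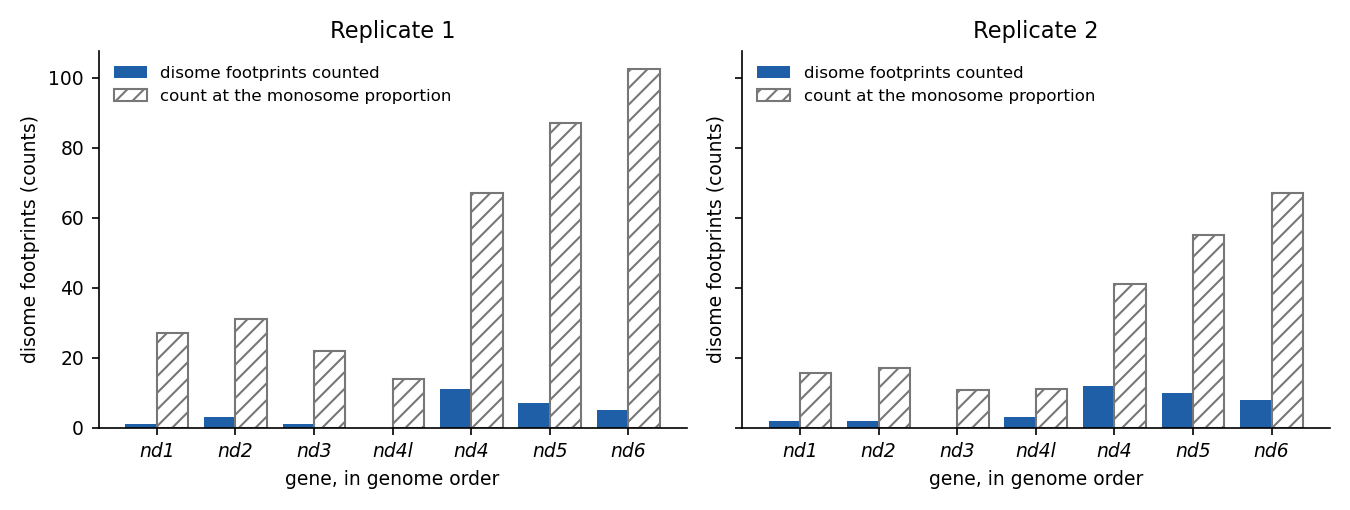
Disome footprints counted on each member (filled bars) and the count at the proportion the gene had in the monosome library of the same replicate number (hatched bars). The y axes are counts, with replicate 1 on the left and replicate 2 on the right. On nd4, for example, 11 and 12 footprints were counted, against 66.9 and 40.9 at the monosome proportion.

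Levels of the members were first compared with each other within the monosome libraries, as CPM per 1000 codons, a density that allows for coding length. Nd6 was the densest member, with 1253 CPM per 1000 codons in replicate 1 and 1061 in replicate 2 (596 and 700 footprints on 173 codons), or 1157 ± 136 (SD, n = 2 libraries). In replicate 1 this exceeded the density of 98.3% of the 25491 transcripts that had monosome footprints, and in replicate 2 that of 97.9% of 26564. Nd6 stood 3.15 and 3.42 times above the next member, and its interval was apart from those of all the other members in both libraries. Whether the counts on nd6 took account of strand is not given in the sources used here, and without strand, reads from RNA of the opposite strand cannot be told apart from reads of nd6 itself.

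The antiporter-like subunits did not form a group of their own by density. Nd4 had 308 and 244 CPM per 1000 codons (389 and 428 footprints on 460 codons) in monosome replicates 1 and 2. Nd5, the longest member with 607 codons, had 303 and 249 (506 and 576 footprints). Their intervals overlapped, and which of them was higher changed between the libraries. Nd2, with 349 codons, was lower, at 189 and 134 CPM per 1000 codons (181 and 178 footprints).

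With full coding lengths, the small subunits Nd3 and Nd4l lay at the level of nd4 and nd5. Nd3 (117 codons) had 398 and 255 CPM per 1000 codons from 128 and 114 monosome footprints, and nd4l (99 codons) had 298 and 310 from 81 and 117. The lowest density was on nd1 (325 codons), with 176 and 132 CPM per 1000 codons from 157 and 164 footprints, which still exceeded 87.3% and 84.6% of transcripts that had monosome footprints. Nd1 and nd2 could not be separated from each other in both libraries, and neither could any pair among nd3, nd4l, nd4 and nd5. Nd3 was apart from nd5 in replicate 1 alone, at 1.31 times its density, with 1.03 times in replicate 2. Of the 21 pairs of members, 14 had the same order and intervals that did not overlap in both monosome libraries, namely the 6 pairs with nd6 and the pairs of nd1 or nd2 with each of nd3, nd4l, nd4 and nd5. By this criterion the members lay at 3 levels in the monosome libraries, nd6 above nd3, nd4l, nd4 and nd5, and these above nd1 and nd2. The density of the highest was 7.13 times that of the lowest in replicate 1 and 8.02 times in replicate 2.

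**Figure D2:**
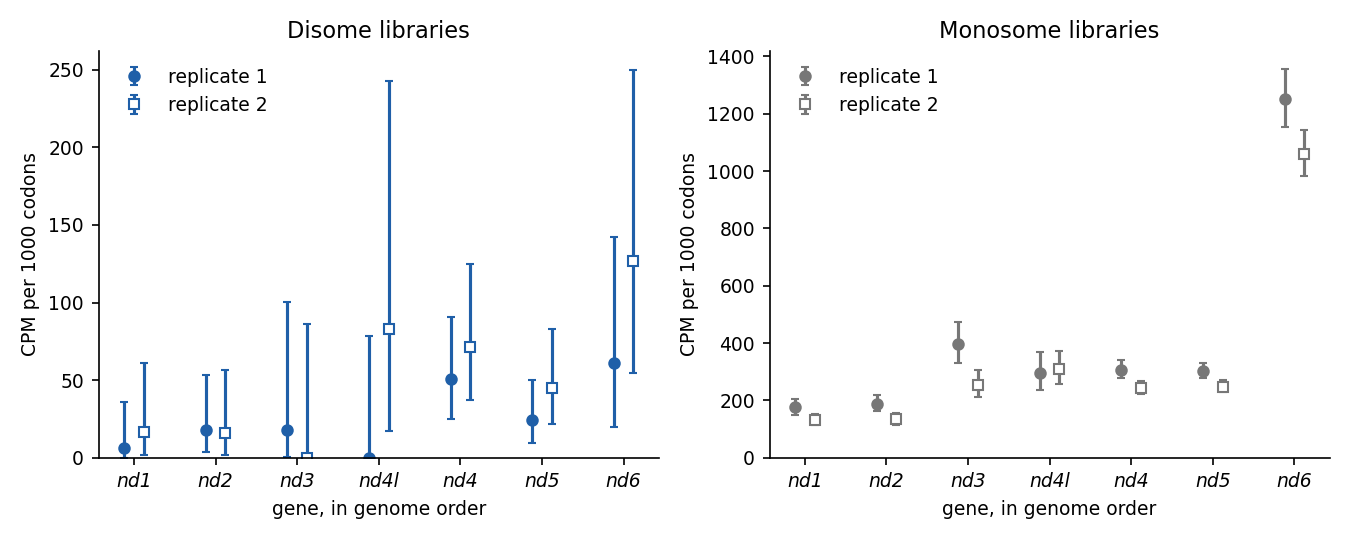
Footprint density of each member in genome order, as CPM per 1000 codons on a linear axis, with disome libraries on the left and monosome libraries on the right (the y axes differ). Points are single libraries and bars are 95% Poisson intervals. In the monosome libraries nd6 stands at 1253 and 1061, above the other members, which lie between 132 and 398, and in the disome libraries no pair of members has intervals apart in both replicates.

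Apart from nd6, the members were less dense in the monosome libraries than every other mitochondrial coding sequence. In the disome libraries, where atp8 had no footprint, this order did not hold. In both monosome libraries, 6 of the 7 members lay below all of the other 6 genes, which encode subunits of cytochrome c oxidase and ATP synthase and cytochrome b. The members without nd6 ranged from 176 to 398 CPM per 1000 codons in replicate 1 and from 132 to 310 in replicate 2, against 850 to 4330 and 615 to 3645 for the other 6 genes. Nd6 lay between cytb and atp8 in both libraries. All 13 were counted in the same libraries, so this order does not depend on sequencing depth, but reads that fit more than 1 locus were removed before counting, in a number that is not known for any gene.

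In the disome libraries, nd4 had the most footprints of the members. Nd4 had disome counts of 11 in replicate 1 and 12 in replicate 2, against 389 and 428 monosome footprints. Nd5 had 7 and 10 against 506 and 576, and nd6 had 5 and 8 against 596 and 700. The other members were at or below 3 footprints in each disome library. Nd2 had 3 and 2, nd1 had 1 and 2, nd4l had 0 and 3, and nd3 had 1 and 0. A count of 0 allows up to 6.34 CPM for nd4l in disome replicate 1 and up to 8.22 CPM for nd3 in disome replicate 2, computed from 3 counts (the two-sided Poisson intervals behind the plot of densities reach 7.80 and 10.1 CPM), against 29.5 CPM for nd4l in monosome replicate 1 and 29.9 CPM for nd3 in monosome replicate 2.

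By density, nd6 was the highest member in both disome libraries, as in the monosome libraries, with 61.1 and 127 CPM per 1000 codons, or 93.9 ± 46.4 (SD, n = 2 libraries). Nd4 followed with 61.0 ± 14.8 and nd5 with 34.8 ± 14.7. None of the 21 pairs had intervals apart in both disome libraries, so that the order of the members was not resolved at this depth. Ranked among all transcripts that had disome footprints, nd4 exceeded 64.0% and 68.8% of them by density, and nd6 exceeded 67.7% and 79.3%. The disome libraries are shallower and fewer transcripts have a count in them, so these ranks cannot be compared with those in the monosome libraries.

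To compare both kinds of footprint gene by gene, the log2 disome-to-monosome ratio was fitted by edgeR (quasi-likelihood test) over 16910 transcripts with at least 20 footprints in the 4 libraries together, with TMM scaling and Benjamini-Hochberg adjustment over all of them. All 7 members passed the count filter, and all 7 were lower in the disome libraries at an FDR of 0.01, against 9.73% of all transcripts tested. The other 6 mitochondrial coding genes were all lower at this FDR as well, so the direction was not particular to the members. Both disome libraries also lay below both monosome libraries in CPM on each of the 7, which was the case for 46.5% of all transcripts tested. The median ratio of the members was -2.98, or -2.85 relative to the median transcript, whose ratio was -0.13. Scaling by library totals shifted the median transcript by -0.22, and of all calls 38.2% were higher in the disome libraries, against 54.8% with TMM. Ratios relative to the median transcript are therefore given as well. The scaling sets where 0 lies, so a ratio says nothing of the absolute share of ribosomes in disomes.

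Among the antiporter-like subunits, nd4 had the ratio closest to that of other transcripts. Its log2 ratio was -1.97 ± 0.27 (SE), or -1.84 relative to the median transcript (edgeR adjusted p = 4.31e-12). Of the other transcripts, 5.64% lay lower (13926 with distinct counts were compared). The lower ones include transcripts without a disome footprint, whose fitted ratios depend on the prior count. Nd5 had a ratio of -2.81 ± 0.27 (edgeR adjusted p = 8.58e-23) and nd2 of -2.98 ± 0.47 (edgeR adjusted p = 4.91e-09). In CPM, nd4 was 6.08 times lower in the disome than in the monosome library of replicate 1 and 3.41 times lower in that of replicate 2. For nd5 these were 12.4 and 5.51 times, and for nd2 10.4 and 8.51 times.

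Among the other members, the edgeR adjusted p was smallest on nd6 and largest on nd4l. Nd6 had a log2 ratio of -3.45 ± 0.28 (edgeR adjusted p = 3.65e-32), and it was 20.5 and 8.37 times lower in the disome libraries by CPM. Its log2 CPM ratios were -4.36 in replicate 1 and -3.07 in replicate 2, so the SE does not measure the spread between them. For nd1, which had 3 disome footprints in all, the ratio was -3.54 ± 0.55 (edgeR adjusted p = 2.36e-09), and it was -4.26 without disome replicate 2 and -2.96 without disome replicate 1. Over both libraries its CPM ratio was 0.0732, with an interval from 0.0150 to 0.216.

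Nd3 and nd4l each had a disome library without a footprint, and their fitted ratios are correspondingly imprecise. Nd3 had a log2 ratio of -4.68 ± 0.76 (edgeR adjusted p = 1.26e-08), and its CPM ratio over both libraries, which rests on a single disome footprint against 242 monosome footprints, was 0.0324 with an interval from 0.000816 to 0.182. Without disome replicate 2 its log2 ratio was -3.86, and without disome replicate 1 no disome footprint on nd3 remained. Nd4l had a log2 ratio of -2.83 ± 0.61 (edgeR adjusted p = 3.91e-05), and its CPM ratio over both libraries was 0.119, with an interval from 0.0243 to 0.352. The call on nd4l was lost with DESeq2 (adjusted p = 0.0153) and without disome replicate 1, where the ratio was -1.67 (edgeR adjusted p = 0.0846). Over all alternatives, its adjusted p from edgeR or DESeq2 ranged from 3.92e-06 to 0.0846. All 3 of its disome footprints were in replicate 2, where its level was 8.22 CPM against 30.7 CPM in the monosome library.

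**Figure D3:**
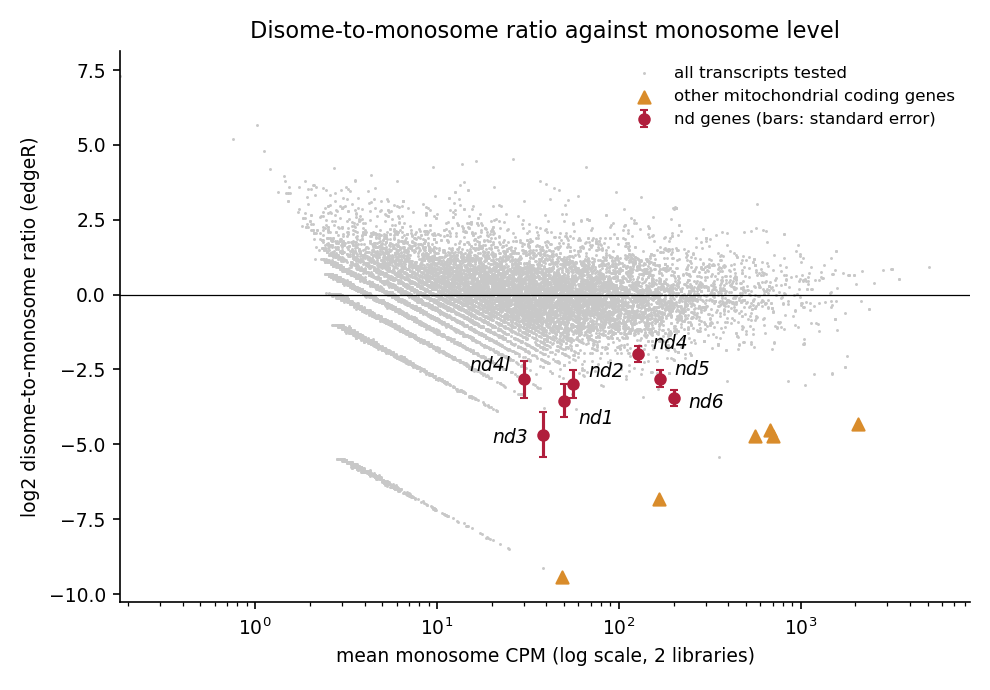
Log2 disome-to-monosome ratio from edgeR (y axis) against the mean monosome CPM (x axis, log scale) for the 16910 transcripts tested (grey), the 7 members (red circles, bars are standard errors) and the other 6 mitochondrial coding genes (orange triangles). The members lie between -4.68 and -1.97, and the other 6 genes between -9.44 and -4.33. The lowest of these, atp8, had no disome footprint, and its fitted ratio depends on the prior count.

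Libraries were paired by replicate number here, and nothing in the labels says that a number marks a shared origin. So paired, the ratio was lower in replicate 1 than in replicate 2 on all 5 members with footprints in both disome libraries. On nd2 this order rests on the pairing, since its disome level was higher in replicate 1 (6.34 CPM, against 5.48 CPM in replicate 2). The lower ratio in replicate 1 was not particular to the members. Their summed CPM ratio was 0.0799 in replicate 1 and 0.170 in replicate 2, against 0.0205 and 0.0604 for the other 6 mitochondrial coding genes summed. All of these genes share the same libraries, so the 5 members are not separate observations of this difference. The 7 members together took 0.00592% of disome replicate 1 (interval 0.00393 to 0.00855) and 0.0101% of disome replicate 2 (0.00714 to 0.0140), against 0.0741% and 0.0597% of the monosome libraries. The direction of the difference was the same in both replicates, whereas its size was not well fixed.

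The members were then set against the other 6 mitochondrial coding genes, which are made by the same ribosomes. The members had the higher disome-to-monosome ratio of both groups, with a median of -2.98, against -4.73 for the other 6 genes, or -4.63 with atp8, which had no disome footprint, set at 3 counts over both libraries. In footprints, the members had 28 and 37 disome counts against 2038 and 2277 monosome counts, and the other 6 genes had 45 and 84 against 12759 and 14529. Expressed as an odds ratio, disome over monosome counts were 3.89 times higher on the members than on the other 6 genes in replicate 1 (exact interval 2.33 to 6.40) and 2.81 times higher in replicate 2 (1.85 to 4.20). Leaving out cox1, which held the most footprints of all 13, the odds ratios were 3.94 (2.19 to 7.18) and 3.61 (2.19 to 5.98). Without nd4l and nd4, they were 3.07 (1.65 to 5.49) and 2.20 (1.30 to 3.56).

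Of all mitochondrial coding footprints, the members accordingly took a larger share in the disome libraries. This share was 38.4% in disome replicate 1 (Clopper-Pearson interval 27.2 to 50.5) and 30.6% in disome replicate 2 (22.5 to 39.6), or 34.5% ± 5.50 (SD, n = 2 libraries). In the monosome libraries it was 13.8% (13.2 to 14.3) and 13.5% (13.03 to 14.1), or 13.7% ± 0.159 (SD, n = 2 libraries). The disome values were above the monosome values in every combination of libraries, and the intervals did not overlap. With 2 libraries of each kind, an exact two-sided permutation test gave p = 0.33, which is the smallest p this design allows. In no library did the share of the members reach the 56.0% of mitochondrial codons that they hold.

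Each member was also set against the other 6 genes by itself. The odds ratio was 8.01 (3.71 to 15.9) and 4.85 (2.39 to 9.01) for nd4, and 3.92 (1.48 to 8.82) and 3.002 (1.38 to 5.84) for nd5. For nd6 it was 2.38 and 1.98, but with intervals that include 1 in both replicates (0.734 to 6.003 and 0.823 to 4.10). For nd1, nd2, nd3 and nd4l the intervals also included 1 in both replicates, and no difference from the other 6 genes was detectable at this depth. This does not show that members differed from each other.

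Within the members, no gene had a share that differed between disome and monosome footprints beyond counting error in both replicates. Nd4 held 39.3% and 32.4% of the disome footprints on members (intervals 21.5 to 59.4 and 18.0 to 49.8), against 19.1% and 18.8% of the monosome footprints. Nd6 held 17.9% and 21.6% of the disome footprints, against 29.2% and 30.7% of the monosome footprints. For nd5, the shares were 25% and 27.0% against 24.8% and 25.3%. The odds ratio of nd4 against the other members was 2.74 in replicate 1 (1.15 to 6.26) and 2.07 in replicate 2, where the interval included 1 (0.941 to 4.32). That of nd6 against the other members was 0.526 (0.155 to 1.42) and 0.622 (0.244 to 1.40), with intervals that included 1 in both replicates. Among the 21 pairs of members, no odds ratio had an interval off 1 in both replicates, and nd4 against nd6 was off 1 in replicate 1 alone (3.37, interval 1.07 to 12.5), with 2.45 (0.913 to 6.97) in replicate 2. The members therefore could not be ranked by this measure, and so few disome footprints do not show that they were alike either.

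**Figure D4:**
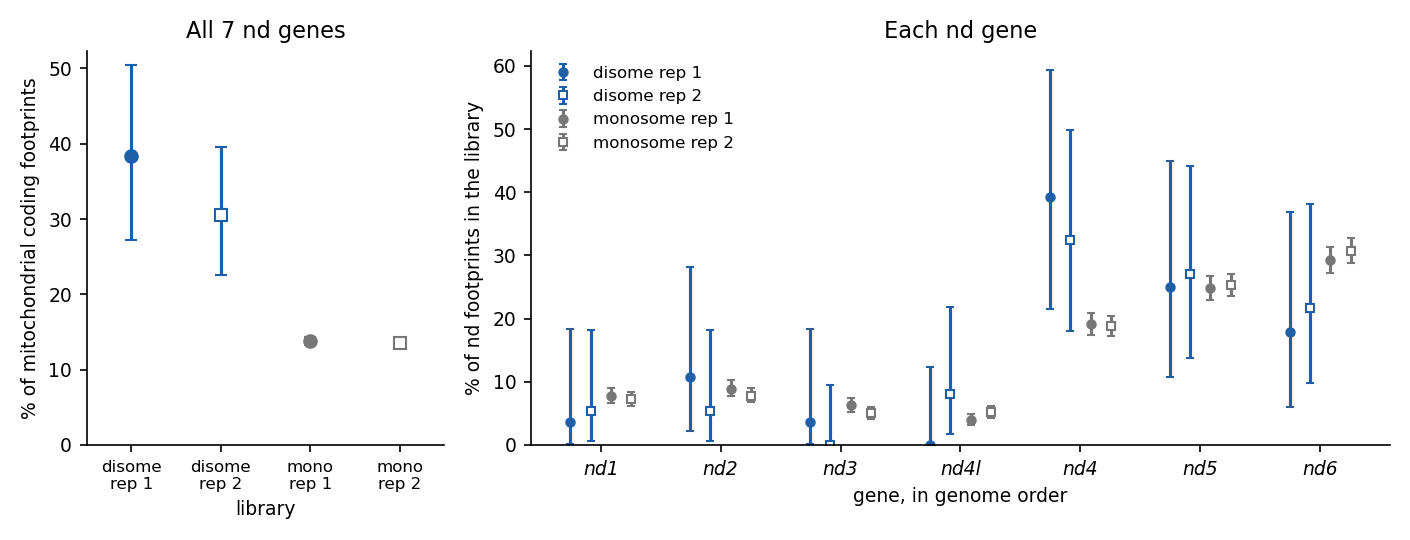
Left, the share of all mitochondrial coding footprints that fell on the 7 members in each library (%), and right, the share of the members' footprints on each gene (%), with disome libraries in blue and monosome libraries in grey and 95% Clopper-Pearson bars. The members took 38.4% and 30.6% in the disome libraries, above 13.8% and 13.5% in the monosome libraries, and nd4 took 39.3% and 32.4% of the members' disome footprints, against 19.1% and 18.8% of their monosome footprints.

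Across the 7 members, coding length had a Spearman's rho of -0.50 with the mean monosome density and of 0.57 with the log2 disome-to-monosome ratio. Over all 13 mitochondrial coding genes, these were -0.07 and 0.49. Between monosome density and the log2 ratio, Spearman's rho was -0.18 over the 7 members and -0.56 over the 13 genes. The monosome counts enter both of these quantities. Coding length is also the divisor of the density. All are descriptions over 7 or 13 genes that share the same 4 libraries. The ratios of nd1, nd2, nd3 and nd4l rest on at most 5 disome footprints each.

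Outside the mitochondrial run, the transcript whose 4 CPM values were nearest to those of the members' sum was ENSDART00000132813.3 (212 codons), at a Euclidean distance of 1.11 in log2(CPM + 1) over the 4 libraries, among 1375 transcripts with at least 1000 monosome footprints. It had 114 and 82.2 CPM in the disome libraries, against 918 and 794 CPM in the monosome libraries. The next nearest, ENSDART00000167298.2 (1007 codons), lay at a distance of 1.14, with 101 and 121 CPM against 468 and 433 CPM. The tables do not pair either of them with a gene.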

How the data were processed

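The authors preprocessed the reads using fastp and aligned them to the GRCz11 genome using STAR (2.7.0a per the submitters' processing notes, which also list CASAVA 1.8), and kept only reads that fitted 1 locus with no more than 1 mismatch. They deposited, for each library, the count of footprints on the coding sequence of each transcript and its length in codons. These counts were whole numbers without normalization, from 364830 to 3814224 in total per library. How isoforms, strand and the ends of coding sequences were handled is not given in the sources used here.

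Disome libraries were tested against monosome libraries in R 4.3.3 using edgeR 4.0.16, keeping transcripts with at least 20 footprints in total, with TMM factors and an FDR of 0.01. The SE of a ratio is its size divided by the square root of the F statistic. It uses information shared among transcripts, so it is not the spread between the replicates of that gene. DESeq2 1.42.0, library totals, RLE factors, other count filters, an FDR of 0.05, identical counts kept once, a block on replicate number and omission of each library were alternatives. Densities have Poisson intervals, shares Clopper-Pearson intervals and odds ratios exact conditional intervals (scipy 1.17.1). The fit was tested on simulated data, where it recovered 173 of 200 transcripts changed by a log2 fold of 2. There were 0 false calls among 16566 transcripts tested. The changed transcripts were drawn only from those well above the count filter, so the recovery does not cover transcripts near it. The simulation used the same dispersion for all transcripts and no shift in mitochondrial content between libraries. It therefore does not test the p-values of the members under such a shift. P-values measure only the spread between these libraries, which may be technical, and edgeR estimates it with information shared among transcripts. The 13 mitochondrial coding sequences together took 0.0154% of disome replicate 1 and 0.0332% of disome replicate 2. Members can share such a shift, so their calls are not independent and their p-values may be too small.

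Gene names follow the order and lengths of the RefSeq mitochondrial genes of the GRCz12tu assembly, whose coordinates were not used. All 7 members were named, and the nearest transcripts were those with the smallest Euclidean distance. Members and lists were chosen with earlier results of these data known. A list of 43 symbols of nuclear complex I subunits and 14 of assembly factors was not analysed here, because the tables used pair no transcript with a gene, and markers of whole embryos were not checked for the same reason.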

Additional observations from a re-analysis of the deposited data

How the results depend on the processing

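The 7 members were called lower in the disome libraries in 75 of 77 combinations of gene and alternative with a test, and no ratio changed direction. In the 28 that leave out a library, a lone library is assumed to vary like those of the other kind, which alone give the spread. The 2 exceptions were nd4l with DESeq2 and nd4l without disome replicate 1, each leaving 6 members called. The fitted ratio was -9.42 on nd3 without disome replicate 1 and -9.13 on nd4l without disome replicate 2, where the remaining disome library had 0 counts and the fit depends on the prior count. On the members other than nd4l, the largest adjusted p over the alternatives was 0.00749 (nd3 with DESeq2). Among all transcripts tested, 9.73% were called lower in the main setting. At the same FDR of 0.01 and with all 4 libraries kept, the number called lower depended on the setting. It ranged from 685 of 12320 tested (DESeq2) to 2524 of 16910 (library totals).

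Of all 16910 transcripts, 3636 were past the FDR. DESeq2 called 2148, and leaving out each library in turn gave from 2120 (without disome replicate 1) to 2881. With a replicate block, 3445 were called, 3425 of them shared, and no call on a member changed. The deviations of libraries with equal numbers were not correlated (r = -0.02, Pearson, over 9709 transcripts). Counting error in the shallow disome libraries can hide a correlation, so this value does not decide whether they share an origin. The authors state that their added disome libraries correspond to monosome libraries published earlier, without matching them by number. Nothing in the labels says that a number marks a shared origin.

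The share of the members among mitochondrial coding footprints without nd4l and nd4 was 24.1% in the disome and 10.8% in the monosome libraries. With either disome library left out the full share ranged from 30.6% to 38.4%. The highest mean monosome density was 7.51 times the lowest in the main setting, and 7.97 times with coding lengths less 20 codons. It was 7.56 times with the 13 mitochondrial coding sequences as denominator, and from 7.13 to 8.02 times with either library left out. With coding lengths less 20 codons, 2 of 14 densities moved by more than the spread between replicates. With 65 disome footprints on all 7 members, the disome counts set the precision of every ratio.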
